A study of Mus musculus with 10 samples.

Results

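Oligodendrocyte precursor cells are the dividing glia that give rise to the myelinating oligodendrocytes and that persist in the mature cortex. Reads on 10 of their known genes were followed here in sorted cortical cells: Pdgfra, Cspg4, Gpr17, Ptprz1, Vcan, Neu4, Lhfpl3, Sox10, Olig1 and Olig2. The genes were chosen from knowledge of the cell type together with earlier results of the same counts, so they were selected on values of these libraries and their levels are given as a description. Values that the fits over all genes give for them are printed, and nothing is read from them. All 10 of 10 were found among the 24453 genes of the count table.

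The study compared 2 types of layer 5 neuron that project to the opposite hemisphere, separated by the activity of Fezf2, a transcription factor gene of deep-layer projection neurons. Male mice of the (Zfp312-EGFP)CO61GsatMmnc line, hemizygous on a Swiss Webster background and carrying GFP under Fezf2 regulatory elements, received the retrograde tracer cholera toxin subunit b (CTB, conjugated to Alexa 647) in the left primary motor cortex at postnatal day 23 to 25. Layer 5 of the right motor cortex was taken at day 28 to 32, and cells were sorted by fluorescence into GFP+ CTB+ cells (Fezf2+ve) and cells with CTB alone (Fezf2-ve). Both types came from each of 5 animals, which gave 5 libraries per type. The mean yield of Fezf2+ve cells was 11280 in the labels, and that of Fezf2-ve cells was lower, by an amount on which the sources differ. Every animal carried the transgene and the tracer, and no unsorted or untraced sample was analysed here. Debris, doublets and dead cells were gated out before the gates on fluorescence, and no glial marker was used.

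The precursor cell is recognised by a surface receptor for platelet-derived growth factor and by the proteoglycan NG2, the products of Pdgfra and Cspg4. The transcription factors Olig1, Olig2 and Sox10 act through the whole lineage, while Gpr17 marks the step at which a precursor commits to become an oligodendrocyte. Precursors are spread evenly through the grey matter and make contacts with neurons.

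The libraries were shallow. Gene reads numbered 118134, 107643, 118069, 151591 and 203379 in Fezf2+ve 1 to 5 (numbers name the animals) and 167916, 89138, 168711, 211368 and 217738 in Fezf2-ve 1 to 5, so that 1 read stood for 4.59 to 11.2 CPM (reads per 1000000 gene reads). Depth was lower in Fezf2+ve in 4 of 5 animals, and this difference was within the spread between animals (exact paired permutation test, 2-sided, p = 0.1875, where 0.0625 is the smallest p that 5 animals allow). A count of 0 allowed a level of up to 13.8 to 33.7 CPM, which is 3 reads of the library. Library Fezf2+ve 1 stood apart in its control RNA, with 46.7% of its gene and ERCC reads together on the added ERCC control RNA against 6.44 to 12.6% in the other 4 Fezf2+ve libraries and 2.79 to 27.1% in the Fezf2-ve libraries. Its 10 most-read genes held 57.1% of its gene reads, beside 13.3 to 47.4% in the other libraries. Reads carried no molecular identifiers, so intervals and limits cover counting error only. Some reads may have been counted on more than 1 gene, so shares are shares of the counts on genes.

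The labelled cell type was checked against its markers. Slc17a7, the vesicular glutamate transporter of cortical projection neurons, had 11 reads in all, and none in 5 of the 10 libraries. Neurod2 and Neurod6 had 2 reads each. Of the 10 projection neuron genes examined, Camk2a had the most reads (588), of which 529 were in the single library Fezf2-ve 3, followed by Grin2b (555), of which 435 were in Fezf2+ve 5. Others in the list included Syt1 with 72 reads, Snap25 with 62, Rbfox3 with 11 and Nrgn with 7. Slc17a7, Neurod2 and Neurod6 were thus near 0 in these libraries, while Camk2a and Grin2b were read mainly in 1 library each.

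Summed over the 10 genes, reads were present in every library. The sum was 2683, 5193, 1694, 1966 and 5689 CPM in Fezf2+ve 1 to 5 and 2632, 1357, 1832, 293 and 1286 CPM in Fezf2-ve 1 to 5. In 4 of 5 animals the Fezf2+ve library was the higher, the exception being animal 3, and the 2 types overlapped. This was so in 3 of 5 animals without Lhfpl3, with reads scaled to the ERCC reads, or for the median over the genes. The highest share was 0.569% (95% Wilson interval 0.537 to 0.603%) of gene reads in Fezf2+ve 5, where Vcan supplied 819 of the 1157 reads, and the lowest was 0.0293% (95% Wilson interval 0.0229 to 0.0376%) in Fezf2-ve 4. Without Vcan the highest share was in Fezf2+ve 2. In Fezf2-ve 5 Pdgfra supplied 243 of the 280 reads and Lhfpl3 32, and in Fezf2+ve 4 Lhfpl3 supplied 273 of 298. In animals 1 and 3 the intervals of the 2 libraries overlapped. The mean was 3445 ± 1866 CPM (SD, n = 5) in Fezf2+ve and 1480.1 ± 853 CPM (SD, n = 5) in Fezf2-ve, and the log2 ratio within animals averaged 1.35. Without Vcan, a choice made after seeing the data, that average was 0.97, without Lhfpl3 it was 0.76, and without animal 1, whose Fezf2+ve library held so much control RNA, it was 1.68. In bulk libraries, fewer cells of a type and less RNA per cell cannot be told apart. Nor can reads of these genes from precursors be told apart from reads from other cells, the sorted neurons included.

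**Figure D1:**
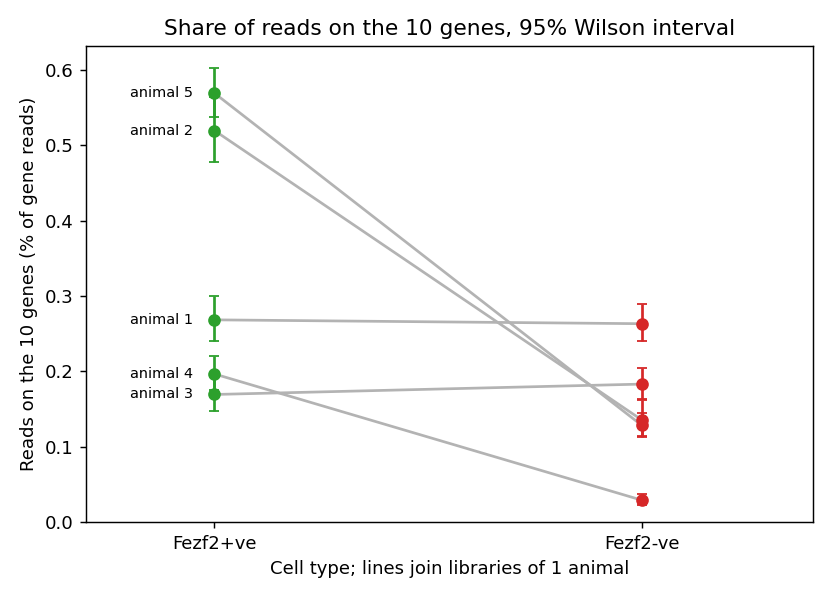
Share of gene reads on the 10 genes (percent, vertical axis) in Fezf2+ve and Fezf2-ve libraries, with 95% Wilson intervals and a line joining the libraries of each animal. The line falls in animals 2, 4 and 5, is nearly level in animal 1, and rises in animal 3.

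Across all genes, the comparison of types with the animal as a block (edgeR quasi-likelihood test) tested 7409 genes and called 0 at a false discovery rate (FDR) of 0.1, with a smallest adjusted p of 0.918. All 10 precursor genes passed the filter of 10 CPM in 2 libraries. Of them 0 were called, beside 0% of all tested genes. At an unadjusted p under 0.05 the same fit held 115 genes higher in Fezf2+ve (1.55% of those tested) and 179 higher in Fezf2-ve (2.42%), and 0 of the 10 precursor genes in either direction. Without the animal block edgeR called 638 genes (8.61%) and, with a robust prior that was chosen after seeing the data, 40 genes, and DESeq2 with the block called 98 of 1664 genes given an adjusted p (5.89%). Precursor genes called were 0 of 10 without the block and 0 of 7 in DESeq2, in which Neu4, Olig2 and Sox10 received no adjusted p. The contrast was known when the genes were chosen, and nothing is read from these counts.

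Fitted fold changes of Fezf2+ve over Fezf2-ve were above 0 for 8 of the 10 genes and below 0 for Pdgfra and Gpr17. Their median was 1.19 on the log2 scale, beside −0.17 over all tested genes, of which 3381 were above 0 and 4028 below. That median lies between Vcan (0.98) and Sox10 (1.39), and Sox10 passed the filter through Fezf2+ve libraries, with 1 Fezf2-ve library at 10 CPM or above, so nothing is read from it. In 6 of the 10 genes the sign turned under at least 1 other setting or left-out animal, while Cspg4, Neu4, Lhfpl3 and Olig1 were above 0 in every fit that was run. Counted by animal, 0 of 10 genes were higher in Fezf2+ve in all 5 animals (1.62% of all tested genes were) and 0 of 10 were higher in Fezf2-ve in all 5 (2.6%). In at least 4 of 5 animals, 2 of 10 were higher in Fezf2+ve (Neu4 and Olig1, beside 9.93%) and 0 of 10 were higher in Fezf2-ve (beside 14.3%).

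**Figure D2:**
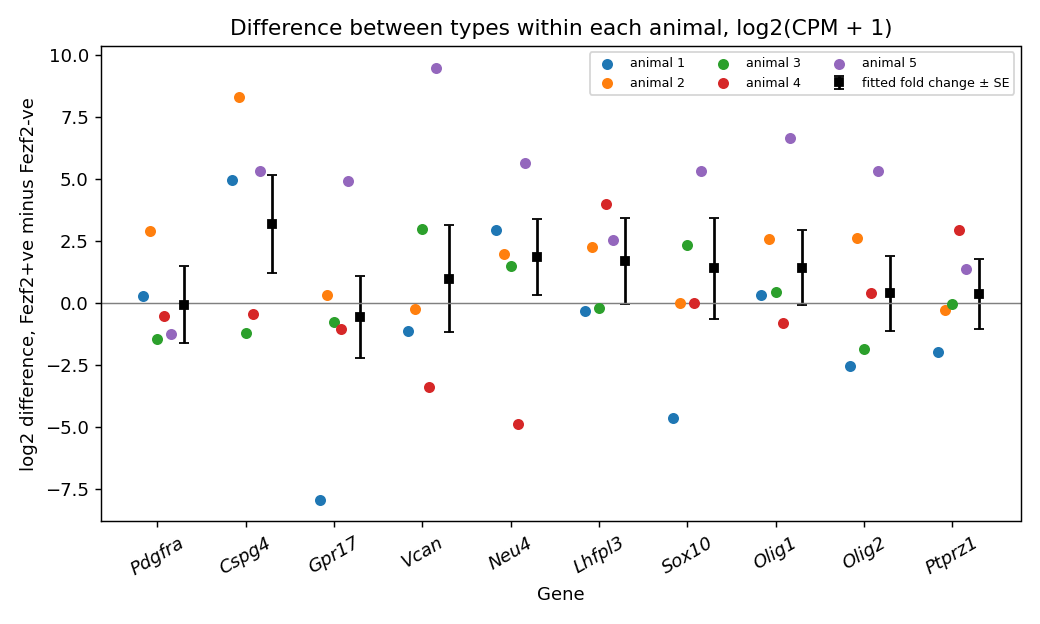
Difference in log2(CPM + 1), Fezf2+ve minus Fezf2-ve, within each of the 5 animals (coloured points) for each gene, with the fitted log2 fold change and its standard error (black squares). Points lie on both sides of 0 for all 10 genes.

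Pdgfra (chr5:75152292-75198215 in build mm10, GENCODE vM21) encodes the alpha receptor for platelet-derived growth factor, which keeps precursors dividing. Pdgfra was at 381, 1830.1, 110.1, 46.2 and 462 CPM in Fezf2+ve 1 to 5 and at 316, 247, 308, 66.2 and 1116 CPM in Fezf2-ve 1 to 5. The highest level was in Fezf2+ve 2 and the next in Fezf2-ve 5, and the types overlapped throughout. Means were 566 ± 728 CPM (SD, n = 5) in Fezf2+ve and 411 ± 407 CPM (SD, n = 5) in Fezf2-ve, and the fitted log2 fold change was −0.07 (SE 1.57, n = 5 animals). Without the animal block the fitted value was 0.15. Pdgfra was 1 of 3 of the genes with reads in all 10 libraries, with Lhfpl3 and Ptprz1. In Fezf2-ve 5 it had 243 reads while Cspg4, Gpr17, Neu4, Sox10, Olig1 and Olig2 all had 0, in the deepest of the libraries. Pdgfra is also expressed by fibroblasts. Of the 7 fibroblast genes examined 5 had no read in any library, and the list had 4 reads in Fezf2-ve 5, all on Dcn; its part in the Pdgfra level was not tested.

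Cspg4 (chr9:56865033-56899870) encodes NG2, the proteoglycan after which precursors are also named. Cspg4 was at 965, 316, 152, 6.60 and 39.3 CPM in Fezf2+ve 1 to 5 and at 29.8, 0, 356, 9.46 and 0 CPM in Fezf2-ve 1 to 5. Levels were highest in Fezf2+ve 1 and at 0 in Fezf2-ve 2 and Fezf2-ve 5, and the types overlapped. It was higher in Fezf2+ve in 3 of 5 animals, with a fitted log2 fold change of 3.17 (SE 1.97, n = 5 animals), which ranged from 1.99 to 4.40 over the other settings. Pericytes carry NG2 as well. The 8 mural genes examined had 14 reads in all 10 libraries together, and 4 of them (Kcnj8, Vtn, Acta2 and Tagln) had none. Fezf2+ve 1, the library highest in Cspg4, had 0 mural reads, and Fezf2+ve 2, the library highest in mural reads (46.4 CPM), had Cspg4 at 316 CPM. The part of mural cells in the Cspg4 level was not tested.

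Gpr17 encodes a receptor of the committed precursor. Gpr17 was at 0, 595, 33.9, 13.2 and 29.5 CPM in Fezf2+ve 1 to 5 and at 244, 482, 59.3, 28.4 and 0 CPM in Fezf2-ve 1 to 5. It was highest in Fezf2+ve 2 and Fezf2-ve 2, the libraries of 1 animal, and at 0 in Fezf2+ve 1 and Fezf2-ve 5. The fitted log2 fold change was −0.57 (SE 1.65, n = 5 animals), and it was 0.37 in counts downsampled to the smallest library. The gene lies on the minus strand at chr18:31942997-31949636 within Lims2, a gene of the plus strand at chr18:31922290-31958619. Lims2, which encodes an adaptor of integrin signalling, had 0, 65, 5, 3 and 7 reads in Fezf2+ve 1 to 5 and 56, 43, 14, 6 and 1 in Fezf2-ve 1 to 5, and Gpr17 had 0, 64, 4, 2 and 6, and 41, 43, 10, 6 and 0. The counts differed by at most 1 read in 8 of 10 libraries and by 4 and 15 in the others. Strand was not stated for the counting, so reads of the 2 genes cannot be told apart and the level of Gpr17 is uncertain. Of the other 9 genes, none overlaps another annotated gene that has reads in the count table.

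**Figure D3:**
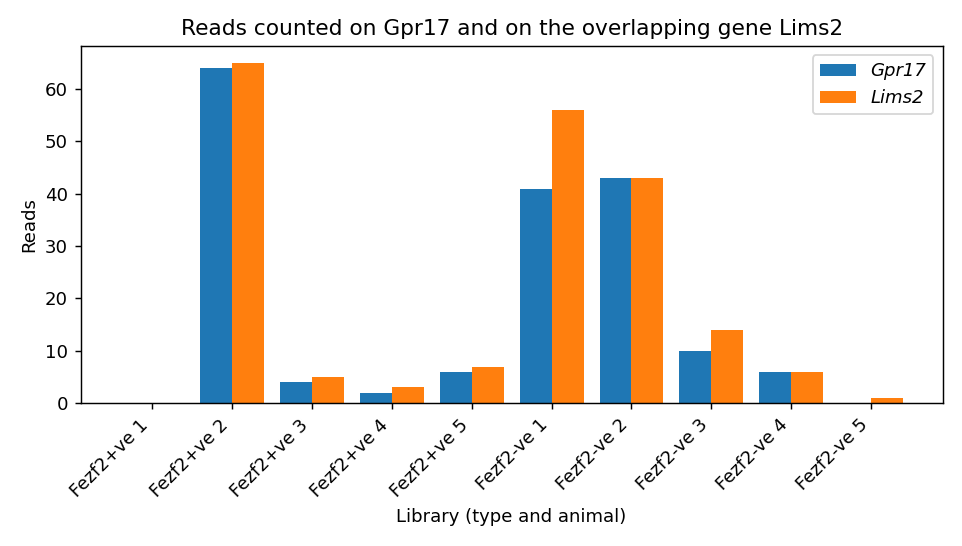
Reads counted on Gpr17 and on the gene that contains it, Lims2, in each of the 10 libraries (bars from 0). The bars of each library are of nearly the same height in 8 of the 10.

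Ptprz1 (chr6:22875502-23052916) encodes a receptor-type tyrosine phosphatase that binds pleiotrophin and contactin. Ptprz1 was at 110.0, 121, 110.1, 79.2 and 49.2 CPM in Fezf2+ve 1 to 5 and at 435, 146, 113, 9.46 and 18.4 CPM in Fezf2-ve 1 to 5. The Fezf2+ve libraries were close to each other, and the Fezf2-ve libraries held both the highest level and the lowest. The SD was 29.4 CPM in Fezf2+ve and 173 CPM in Fezf2-ve (n = 5 each), and the fitted log2 fold change was 0.36 (SE 1.42, n = 5 animals). It fell below 0 without the animal block (−0.34).

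Vcan (chr13:89655312-89742509) encodes versican, a proteoglycan of the extracellular matrix. Vcan was at 254, 18.6, 423, 0 and 4027 CPM in Fezf2+ve 1 to 5 and at 554, 22.4, 53.3, 9.46 and 4.59 CPM in Fezf2-ve 1 to 5. A single library, Fezf2+ve 5, held 81.2% of its 1008 reads, and the other libraries of the 2 types overlapped. The fitted log2 fold change was 0.98 (SE 2.16, n = 5 animals). It was −0.22 without animal 5 and 3.33 without the animal block. Among the projection neuron genes, Grin2b was also highest in Fezf2+ve 5.

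Lhfpl3 (chr5:22746059-23275597) encodes a membrane protein with 4 transmembrane segments that is used as a marker of precursors. Lhfpl3 was at 389, 1784, 584, 1801 and 856 CPM in Fezf2+ve 1 to 5 and at 488, 370.2, 682, 114 and 147 CPM in Fezf2-ve 1 to 5. Every library had at least 24 reads. The lowest levels were in Fezf2-ve 4 and Fezf2-ve 5 and the highest in Fezf2+ve 4 and Fezf2+ve 2, with the types overlapping in between. Means were 1083 ± 669 CPM (SD, n = 5) in Fezf2+ve and 360.1 ± 238 CPM (SD, n = 5) in Fezf2-ve, and the fitted log2 fold change was 1.68 (SE 1.75, n = 5 animals), from 1.04 to 2.18 when each animal was left out. In Fezf2+ve 4 it supplied 273 of 298 precursor reads, in a library where Vcan, Neu4 and Sox10 were at 0.

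Pdgfra, Vcan and Lhfpl3 were the 3 genes with the most reads, and the 250 bases before their RefSeq starts (build GRCm38.p6, written 5′ to 3′) are shown because 3 of the 10 genes, Olig1, Olig2 and Sox10, encode proteins that bind DNA. Capitals mark CANNTG, the E-box letters that basic helix-loop-helix factors such as Olig1 and Olig2 can bind. The pattern reads the same on both strands. The stretches lie at chr5:75152001-75152250 (plus strand), chr13:89742513-89742762 (minus strand) and chr5:22745804-22746053 (plus strand), upstream of the transcribed part of each gene.
Pdgfra: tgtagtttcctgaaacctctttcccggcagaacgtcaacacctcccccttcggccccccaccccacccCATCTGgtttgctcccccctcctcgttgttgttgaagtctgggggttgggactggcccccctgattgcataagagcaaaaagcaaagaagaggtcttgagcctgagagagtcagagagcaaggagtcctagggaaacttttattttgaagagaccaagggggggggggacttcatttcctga
Vcan: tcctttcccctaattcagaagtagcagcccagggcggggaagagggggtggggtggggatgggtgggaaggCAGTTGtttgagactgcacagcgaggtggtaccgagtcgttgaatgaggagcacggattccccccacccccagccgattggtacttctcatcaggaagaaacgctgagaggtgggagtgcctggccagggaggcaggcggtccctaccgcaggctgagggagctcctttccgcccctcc
Lhfpl3: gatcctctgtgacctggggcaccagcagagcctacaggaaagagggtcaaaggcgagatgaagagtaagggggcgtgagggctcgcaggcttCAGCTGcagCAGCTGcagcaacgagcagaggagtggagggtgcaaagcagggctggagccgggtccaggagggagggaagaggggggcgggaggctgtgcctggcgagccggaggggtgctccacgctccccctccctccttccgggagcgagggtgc

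The Pdgfra and Vcan stretches each held 1 match and the Lhfpl3 stretch held 2. Promoters were found for 7 of the 10 genes, of which 4 held CANNTG, beside 66.2% of the 32851 promoters of the same length. The letters ACAAT, a core bound by Sox proteins, were searched on both strands and found in 3 of the 7 (Cspg4, Neu4 and Olig2), beside 27.7% of all. The 2 patterns can overlap, and each was counted on its own. A match describes letters only, and RNA counts do not measure binding. No promoter was found for Gpr17, Sox10 and Olig1.

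Neu4 (chr1:94020451-94028334) encodes a sialidase, an enzyme that removes sialic acid from glycans. Neu4 was at 144, 46.4, 67.8, 0 and 49.2 CPM in Fezf2+ve 1 to 5 and at 17.9, 11.2, 23.7, 28.4 and 0 CPM in Fezf2-ve 1 to 5. It was higher in Fezf2+ve in every animal but animal 4, in whose Fezf2+ve library it had no read, and the counts behind these levels were small, with 54 reads in all. The fitted log2 fold change was 1.85 (SE 1.53, n = 5 animals).

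Of the transcription factors, Olig1 had 214 reads, Olig2 had 82 and Sox10 had the fewest. Sox10 (chr15:79154908-79165240), which activates myelin genes, had 17 reads in all, at 0 to 8 per library, and was at 0 in 6 of 10 libraries. Olig1 was at 406, 409, 144, 13.2 and 98.3 CPM in Fezf2+ve 1 to 5 and at 322, 67.3, 107, 23.7 and 0 CPM in Fezf2-ve 1 to 5. Olig1 was high in both libraries of animal 1 and in Fezf2+ve 2, and at 0 in Fezf2-ve 5. Its fitted log2 fold change was 1.41 (SE 1.52, n = 5 animals). Olig2 was at 33.9, 74.3, 33.9, 6.60 and 39.3 CPM in Fezf2+ve 1 to 5 and at 202, 11.2, 124, 4.73 and 0 CPM in Fezf2-ve 1 to 5. Its 2 highest levels were in Fezf2-ve 1 and Fezf2-ve 3, and in animals 1 and 3 Olig1 was higher in Fezf2+ve while Olig2 was higher in Fezf2-ve. In animal 4 Olig2 had 1 read in each library. The fitted log2 fold change of Olig2 was 0.38 (SE 1.51, n = 5 animals) and turned to −0.73 without the animal block. Olig1 and Olig2 are neighbours, at chr16:91269772-91271933 and chr16:91225457-91228677 in GENCODE vM21 (mm10), 41.1 kb apart.

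Levels are compared between genes per length here, although the libraries were made to favour the 3′ ends of transcripts, so that reads need not scale with length. Per kb of exon, the mean over the 10 libraries was highest for Lhfpl3 (225 CPM per kb), followed by Olig1 (73.5) and Pdgfra (48.7), and lowest for Sox10 (3.37). Per kb of the whole gene with its introns, Olig1 was highest (73.5) and Lhfpl3, whose gene spans 529.5 kb, stood above Sox10 and Ptprz1 only (1.36). By the median over libraries per kb of the whole gene, Lhfpl3 (1.01) also stood above Cspg4 (0.992) and Vcan (0.435), whose reads lay largely in few libraries. The order thus rested on the length and the average used. Reads in introns are taken to be among the counts, since the study's mapping found many and the gene totals come near or above its totals of mapped reads, although its methods do not state how introns were counted.

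**Figure D4:**
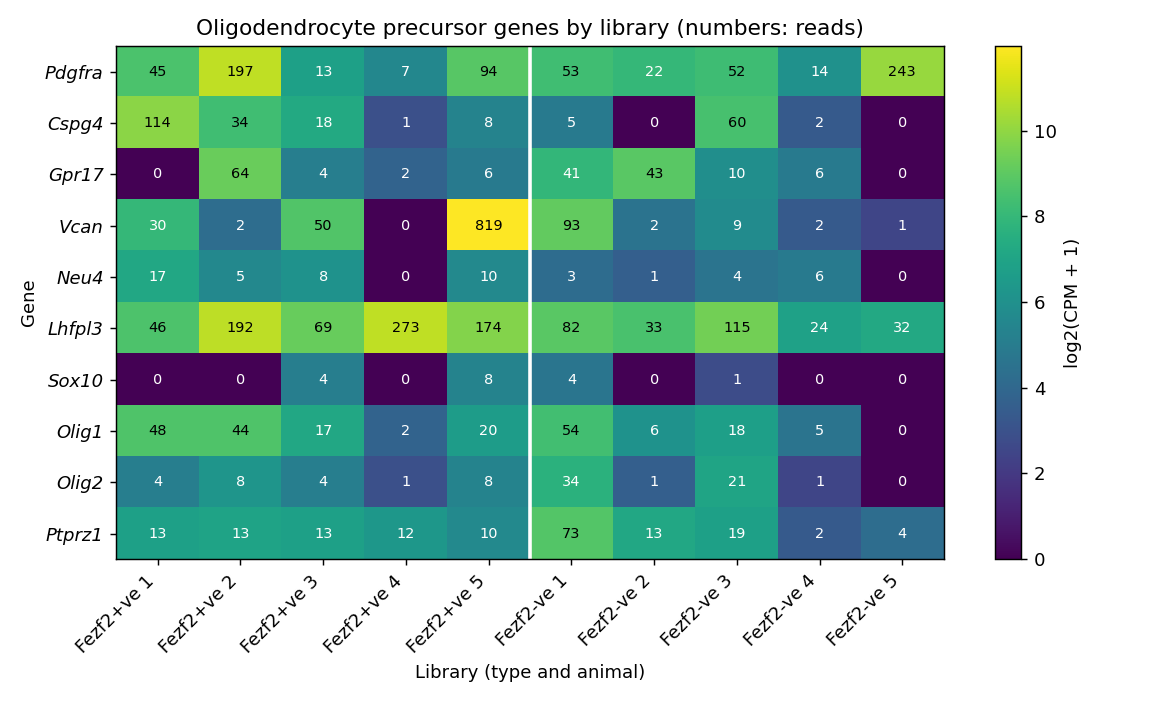
Level of each of the 10 genes (rows) in each library (columns) as log2(CPM + 1), from 0 (dark) upwards, with the reads printed in each cell. Lhfpl3, Pdgfra and Ptprz1 have reads in all 10 libraries, Sox10 in 4, and Fezf2-ve 5 has reads on 4 genes only.

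Pairs of the 10 genes differed in how closely their levels followed each other. No value for pairs of other genes is set beside them, so nothing is read on the genes as a group. Over the 10 libraries the Pearson correlation of log2(CPM + 1) was 0.894 for Olig1 with Olig2 (Spearman 0.758) and 0.831 for Olig1 with Neu4 (Spearman 0.693), and its median over the 45 pairs was 0.367. For the 9 pairs with Pdgfra it ran from −0.0516 to 0.214. The pairs share libraries and their depth, many of the counts are small, and no p is given. Of the 1282 other genes that had enough reads, those whose levels followed the precursor sum most closely were Nacc2 (Pearson 0.893, Spearman 0.867), Spock2 (0.858, 0.867), Mboat7 (0.847, 0.721), Kif5a (0.819, 0.782) and Rab1a (0.812, 0.709), over 10 libraries. Without Fezf2-ve 4 and Fezf2+ve 5 the Pearson values were 0.693, 0.845, 0.630, 0.864 and 0.589. Spock2 had 353 of its 374 reads, and Nacc2 130 of its 163, in Fezf2+ve 5, the library with most reads on the 10 genes.

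Further genes of the lineage were taken from lists. Of 19 other precursor genes 16 were tested, with 11 fitted values above 0 and 5 below, a median of 0.80, and 0 with an unadjusted p under 0.05. Their summed level was set by single libraries: Pcdh15 had 3445 of its 3538 reads in Fezf2-ve 4, Megf11 had 1349 of 1416 in Fezf2+ve 3, and Dscam had 2738 of 3476 in Fezf2+ve 5. All 3 are also expressed by neurons. Of 10 genes of committed precursors 8 were tested, with a median of 1.17. Bcas1, a marker of the newly formed oligodendrocyte, was the only gene of that list with an unadjusted p under 0.05 in edgeR. Of all tested genes 1.55% were under 0.05 and higher in Fezf2+ve. Bcas1 had a log2 fold change of 3.30 (SE 1.63) and was not called at FDR 0.1. It had 97 reads, 45 in Fezf2+ve 2 and 9 in all Fezf2-ve libraries together, and was higher in Fezf2+ve in 4 of 5 animals. The most-read genes of the list were Tcf7l2 (3437 reads), Nfasc (1908) and Itpr2 (413), with fitted values of 0.04, 2.56 and 1.23. Single libraries set much of their level, with 2287 Tcf7l2 reads in Fezf2-ve 4, 1065 Nfasc reads in Fezf2-ve 1, and 198 and 192 Itpr2 reads in Fezf2+ve 3 and Fezf2-ve 3. Mean levels of Tcf7l2 and Nfasc were lower in Fezf2+ve (1033 against 2745 CPM, and 861 against 1301 CPM). Median levels were 747 against 896 CPM for Tcf7l2 and 195 against 18.4 CPM for Nfasc. The summed list had a mean of 2508 ± 1828 CPM (SD, n = 5) in Fezf2+ve and 4345 ± 4372 CPM (SD, n = 5) in Fezf2-ve. The order of these means was the reverse of the sign of the median fitted value. The highest sum was in Fezf2-ve 4, at 10867 CPM. Medians of the sum were 2888 CPM in Fezf2+ve and 2721 CPM in Fezf2-ve, and it was higher in Fezf2+ve in 3 of 5 animals.

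Ligands and matrix partners of the 10 genes, 13 in all, had 9 tested genes with a median of 1.19 and 0 with an unadjusted p under 0.05. Bcan and Tnr were in this list and in that of other precursor genes. Cntn1, a contactin that binds Ptprz1, had the most reads of the partners (1506) and a fitted log2 fold change of 4.70 (SE 2.65). Of its 433 Fezf2-ve reads 422 were in Fezf2-ve 1, and it was higher in Fezf2+ve in 4 of 5 animals, all but animal 1. Bcan and Ptn came next in reads, with fitted values of 0.60 and 1.19. Bcan had 428 of its 908 reads in Fezf2-ve 1 and 306 in Fezf2+ve 1. Ptn had 704 of its 738 reads in Fezf2+ve 3 and was higher in Fezf2-ve in 3 of 5 animals, and its fitted value ran from 0.06 to 2.02 when each animal was left out. Of 12 paralogs 6 were tested, with a median of −0.25. Sox8 was also in the list of other precursor genes, and Pdgfrb in the mural list. Ptprg, the paralog of Ptprz1, had 3413 reads, of which 1857 were in Fezf2-ve 4, while Sox8 had 20 reads and Lhfpl4 had 13.

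Myelin genes, which mark the mature oligodendrocyte, had 779, 10841, 635, 112 and 418 CPM in the Fezf2+ve libraries and 2138, 684, 427, 132 and 271 CPM in the Fezf2-ve libraries. Fezf2+ve 2 stood above all others, with 289 of the 557 Mbp reads, and it was also the library with the most Gpr17 and Pdgfra per gene read. Outside this library the 2 types overlapped in the myelin sum. Of the 14 genes 8 were tested, 6 above 0 and 2 below, with a median of 0.28 and 0 with an unadjusted p under 0.05. Opalin had no read, and Cnp had 142 reads.

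Markers of other cell types were set beside the precursor sum. The 12 microglia genes summed to 262, 177, 102, 72.6 and 128 CPM in the Fezf2+ve libraries and 6872, 5452, 7225, 1845 and 4028 CPM in the Fezf2-ve libraries. All 12 were lower in Fezf2+ve in 5 of 5 animals, and 10 had an unadjusted p under 0.05 in edgeR while 0 were called at FDR 0.1, with a median fitted value of −5.05. In animals 2, 4 and 5 the precursor sum was higher in Fezf2+ve while the microglia sum was lower, in animals 1 and 3 the intervals of the precursor share overlapped, and the part of the one in the share of the other was not tested. Fitted log2 fold changes were −6.36 for Ctss, −7.05 for Csf1r and −2.96 for C1qc, the last with an unadjusted p above 0.05. Genes with an unadjusted p under 0.05 included Ctss and Csf1r, and also P2ry12, Tmem119, C1qa, C1qb, Selplg, Tyrobp and Siglech at −3.80 to −6.91.

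The 12 astrocyte genes summed to 1388, 7869, 1177, 1821 and 561 CPM in the Fezf2+ve libraries and 1328, 415, 225, 3823 and 115 CPM in the Fezf2-ve libraries, higher in Fezf2+ve in 4 of 5 animals. Of them 10 were tested, with 7 fitted values above 0 and 3 below, and 0 with an unadjusted p under 0.05. The median fitted value was 1.44, beside 1.19 for the precursor genes, from which nothing is read. The animal that differed was animal 4 for astrocyte genes and animal 3 for precursor genes. Slc1a2, the most read, had 1817 reads, with 778 in Fezf2+ve 2 (7228 CPM) and 791 in Fezf2-ve 4 (3742 CPM). Slc1a3 had 271 reads, of which 238 were in Fezf2+ve 4, and Ndrg2 had 190. The 10 projection neuron genes summed to 618, 446, 271, 39.6 and 2227 CPM and 101, 157, 3384, 61.5 and 491 CPM in the same order. Of these 7 were tested, 4 above 0 and 3 below, with a median of 0.29. The part of astrocyte and neuronal RNA in the precursor levels was not tested.

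Vascular and interneuron genes were close to 0. The 6 endothelial genes had 51 reads in all, led by Flt1 with 26, Pecam1 with 9 and Cldn5 with 7. Of the mural genes Pdgfrb had 6 reads, Abcc9 had 4 and Myl9 had 3, and of the fibroblast genes Col3a1 and Dcn had 4 each while Col1a1 had 0. The 7 interneuron genes had 11 reads, from Gad2 (6), Gad1 (4) and Sst (1).

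**Figure D5:**
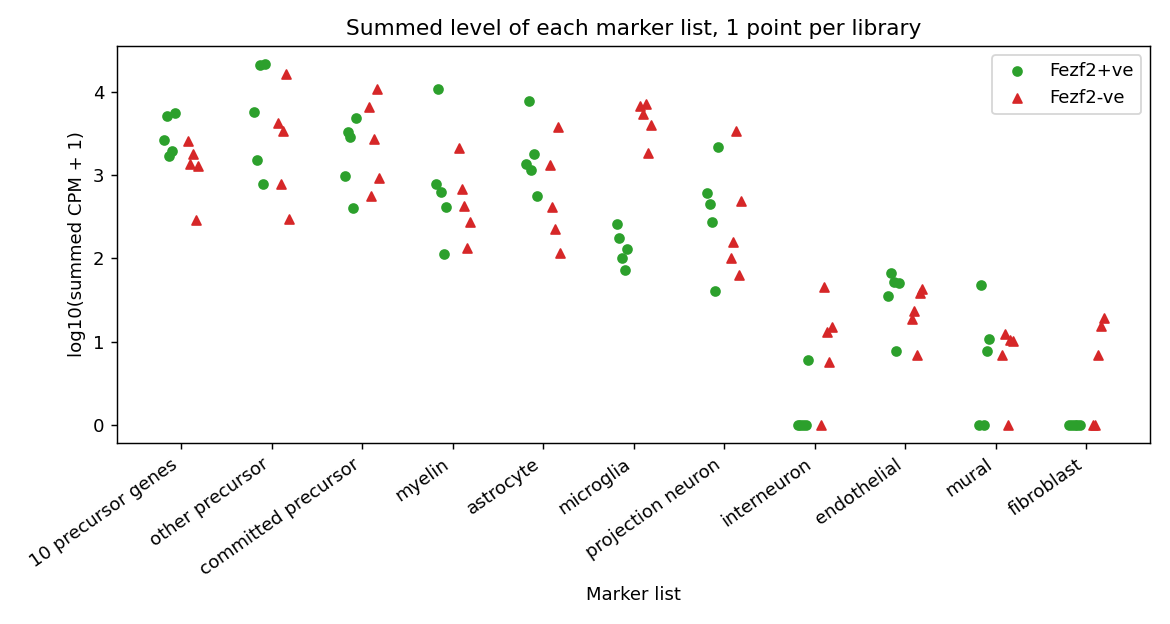
Summed level of each marker list as log10(summed CPM + 1), 1 point per library, with Fezf2+ve as circles and Fezf2-ve as triangles. The types overlap for the 10 precursor genes and are apart for the microglia genes, and the vascular, fibroblast and interneuron lists lie lowest.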

How the data were processed

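RNA from sorted cells was amplified by PCR and in vitro transcription with ERCC control RNA added. Read counts per gene and per ERCC transcript were deposited by the authors as raw, whole numbers. They were made, per the labels and the methods, by mapping reads to mm10 with TopHat2 2.1.1 and counting with bedtools 2.26.0 on RefFlat genes. Strand use was not given in the sources used here. A deposited table of the authors' own comparison (fold changes and p-values) was not used, and 0 per-sample columns were left unused.

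CPM were computed from the counts over all 24453 genes. Types were compared with edgeR 4.0.16 (R 4.3.3; TMM, glmQLFit, glmQLFTest) on genes reaching 10 CPM in 2 or more libraries. Library sizes came from the kept genes, animals entered as blocks, and p-values were adjusted over all tested genes by Benjamini and Hochberg's method, with calls at FDR 0.1. DESeq2 1.42.0 was the alternative. The fits were also run on counts simulated with the same spread setting for every gene and no animal effect. That run does not show how they perform on counts as uneven as these. Library measures were compared by exact paired permutation. The pairing by animal is stated in the study's methods, and libraries were matched by the number in their titles. Deviations of same-numbered libraries from their type means correlated at 0.0283 on average (−0.0297 to 0.0966, 5 pairs). Positions came from GENCODE vM21 and promoters from RefSeq (GRCm38.p6). Python 3.11.15, pandas 2.3.3, numpy 2.4.6 and matplotlib 3.10.9 were used.

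The members and lists were chosen with earlier results of these data known. Named genes were the 10 members, the 3 genes of highest mean CPM in each related list, any of its genes with FDR at or below 0.1 or an unadjusted p under 0.05, and the 5 tested genes, with at least 100 reads and reads in at least 6 libraries, whose log2(CPM + 1) correlated most with that of the member sum. Slc17a7, Neurod2, Neurod6, Snap25, Rbfox3, Nrgn, Lims2 and genes named as having no read were added after their values were seen, as were the counts of genes higher in 1 type by animal (in all 5 and in at least 4 of 5). Some genes that this rule names are not reported here. Alternatives were other scalings, filters, tools and priors, downsampling, no block, and each animal left out.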

Additional observations from a re-analysis of the deposited data

Results flagged for a closer look

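A library stood far from the other 4 of its type (Dixon's ratio above 0.71) in 23 of the 60 sets of 5 examined for the 10 genes, the summed lists, the genes most like the precursor sum and the library measures. The ratio gives about 1 in 20 by chance only for normally distributed values in sets chosen without them; here the genes were chosen with values known and many sets are skewed or hold zeros, so the count is not read against it. Counting also the single genes of the related lists, it did so in 64 of 150. No cause of these was tested.

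Among the precursor genes these were Pdgfra at 1830.1 CPM in Fezf2+ve 2 (46.2 to 462 in the other 4), Pdgfra at 1116 CPM in Fezf2-ve 5 (66.2 to 316 in the other 4) and Cspg4 at 356 CPM in Fezf2-ve 3 (0 to 29.8 in the other 4). They also included Gpr17 at 595 CPM in Fezf2+ve 2 (0 to 33.9 in the other 4), Vcan at 4027 CPM in Fezf2+ve 5 (0 to 423 in the other 4), Vcan at 554 CPM in Fezf2-ve 1 (4.59 to 53.3 in the other 4) and Sox10 at 23.8 CPM in Fezf2-ve 1 (0 to 5.93 in the other 4). Fezf2+ve 2 stood apart for both Pdgfra and Gpr17, and Fezf2-ve 1 for both Vcan and Sox10.

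Among summed lists these were the other precursor list at 16857 CPM in Fezf2-ve 4 (294 to 4288 in the other 4), the partner list at 11002 CPM in Fezf2+ve 3 (474 to 3232 in the other 4) and the paralog list at 8809 CPM in Fezf2-ve 4 (363 to 1636 in the other 4). Further ones were the myelin list at 10841 CPM in Fezf2+ve 2 (112 to 779 in the other 4), the myelin list at 2138 CPM in Fezf2-ve 1 (132 to 684 in the other 4), the astrocyte list at 7869 CPM in Fezf2+ve 2 (561 to 1821 in the other 4) and the mural list at 46.4 CPM in Fezf2+ve 2 (0 to 9.83 in the other 4). The last were the projection neuron list at 2227 CPM in Fezf2+ve 5 (39.6 to 618 in the other 4), the projection neuron list at 3384 CPM in Fezf2-ve 3 (61.5 to 491 in the other 4) and the interneuron list at 4.92 CPM in Fezf2+ve 5 (0 to 0 in the other 4), the interneuron value being a single read.

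Among the genes most like the precursor sum these were Nacc2 at 639 CPM in Fezf2+ve 5 (19.8 to 55.7 in the other 4), Nacc2 at 77.4 CPM in Fezf2-ve 1 (0 to 22.4 in the other 4), Spock2 at 1736 CPM in Fezf2+ve 5 (13.2 to 46.4 in the other 4), Kif5a at 2137 CPM in Fezf2+ve 2 (6.60 to 93.1 in the other 4) and Rab1a at 309.7 CPM in Fezf2-ve 1 (0 to 78.5 in the other 4). The share of ERCC reads in the gene and ERCC reads together was 46.7% in Fezf2+ve 1 and 6.44 to 12.6% in the other 4 libraries of that type.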

How the results depend on the processing

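The count of genes called between types turned on the animal block and on the tool. With the block edgeR called 0 genes, also with median-of-ratios size factors, library size alone, no filter, a filter of 10 CPM in 5 libraries, downsampling, FDR 0.05, and each animal left out (0 to 0), with 153 to 275 genes at an unadjusted p under 0.05 in the last. Without the replicate block it called 638 genes, and DESeq2 with the block called 98. Further settings were chosen after seeing the data. Library sizes from all genes gave 0 with the block and 646 without it, and a robust prior gave 0 with the block and 40 without it, so that the count without pairing moved from 638 to 40 with the prior alone. The cause was not tested. Precursor genes called were 0 in every one of these fits, with Sox10 not tested under the filter of 5 libraries. At an unadjusted p under 0.05 the only one was Cspg4, in DESeq2 and in edgeR without animal 3.

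Over 159 fitted values of the 10 genes under other settings, 3 moved by more than the main standard error, all of Vcan without the block. The sign turned for Pdgfra, Gpr17, Vcan, Sox10, Olig2 and Ptprz1, and not for the other 4, in at least 1 setting each. The mean log2 ratio of the precursor sum was 1.35, and was above 0 under each alternative. It was lowest without Lhfpl3, at 0.76, and was 0.97 without Vcan. It was 1.52 without the 10 most-read genes in the total, 1.03 scaled to ERCC reads and 1.36 as a median over genes. With each animal left out it was 1.00 to 1.71. The mean difference in ERCC share, 2.47 percentage points higher in Fezf2+ve, was −2.39 without animal 1 and ran to 7.60 over the other left-out animals. The difference in gene reads ran from −43640 to −24070 with each animal left out. Sox10, Neu4 and Olig2 had the fewest reads, 17, 54 and 82. In counts downsampled to the smallest library the fitted value of Olig2 went from 0.38 to 0.35. That of Vcan went from 0.98 to 2.00, and that of Gpr17 from −0.57 to 0.37.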
